A study of Mus musculus with 8 samples.

Results

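Genes that carry, amplify or restrain the signal of the T cell receptor were examined in mouse regulatory T (Treg) cells lacking one or both subunits of the alternative NF-κB pathway. The members were chosen by gene symbol from a list of 36 genes, comprising 23 activators and 13 negative regulators. The deposited table held 35 of them among its 22432 genes. The absent one was Tespa1, an adaptor of thymocyte receptor signalling, which leaves 22 activators. All 35 passed the filter on low values, as did 13797 genes of the table in all.

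RNA from 8 libraries was sequenced, 2 for each of 4 genotypes on the C57Bl/6 background. Every mouse carried Foxp3-CRE-YFP, a Cre recombinase with a yellow fluorescent reporter under control of the Treg transcription factor gene Foxp3, so the controls carried it too. WT cells had this transgene alone, RelB-KO cells added RelB F/F, Nfkb2-KO cells added nfkb2 F/F, and double-knockout (DKO) cells added both floxed alleles. The deletions were thus driven by Foxp3. Reporter-positive cells were sorted from a pool of spleen and lymph nodes, and the labels give neither the age of the animals nor whether replicates came from separate animals. The p-values thus measure only the spread between these libraries. All cells were cultured for 16 h on antibody to CD3 at 5 µg/ml, with 10 ng/ml IL-2, 1 µg/ml soluble antibody to CD28 and 2 µg/ml of an agonist antibody to the costimulatory receptor OX40. No unstimulated sample was analysed here, so the values describe cells already engaged through the receptor.

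The T cell receptor has no enzymatic activity of its own. The Src-family kinase Lck phosphorylates the cytoplasmic tails of the CD3 and zeta chains, the kinase Zap70 docks there, and Zap70 phosphorylates the adaptors Lat and Lcp2 (SLP-76). From this platform, phospholipase Plcg1 releases calcium and diacylglycerol, Rasgrp1 and Sos1 activate Ras, and Prkcq (PKCθ) signals through Bcl10 and Malt1 to the canonical NF-κB pathway. Csk and its homologue Matk restrain Src-family kinases, Cbl and Cblb are ubiquitin ligases, Dgka and Dgkz consume diacylglycerol, and the phosphatases Ptpn6 and Ptpn22 dephosphorylate proximal proteins. Treg cells need receptor signals for their suppressive function. Relb and Nfkb2 encode the subunits of the alternative NF-κB pathway, which receptors such as OX40 engage.

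The labels were checked first. Relb stood between 6.35 and 7.08 in the 4 libraries with the RelB allele deleted and between 10.49 and 10.84 in the others, on the deposited log2 scale. Nfkb2 stood between 8.75 and 9.85 where it was deleted and between 12.31 and 12.80 elsewhere. Both transcripts were higher in the DKO libraries than in the single knockout of the same gene. Nfkb2 was 8.75 and 8.79 in Nfkb2-KO and 9.29 and 9.85 in DKO libraries. Relb was 6.35 and 6.52 in RelB-KO and 6.74 and 7.08 in DKO libraries. All 6 Treg markers were high in every library, with Foxp3 between 13.95 and 14.28. Markers of other cell types were mixed. The B cell factor Pax5 was listed at 0 throughout, while Cd79b lay between 7.09 and 7.72. Cd8a did not exceed 0.92, while Cd8b1 lay between 7.57 and 7.87 and Eomes between 5.70 and 6.49. WT replicate 1 stood apart in genes of the sex chromosomes. Xist was 8.17 there and 14.61 to 15.13 in the other 7 libraries, and the Y-linked Ddx3y was 11.60 there and at most 4.35 in the others. Values that rest on it are given without it where that changes a call. Samples with the same replicate number also deviated together across genes in every pair of genotypes, so each test was fitted without and with the replicate number in the model, and the second is called the replicate block. The word called is used for an adjusted p below 0.05, from limma with Benjamini-Hochberg adjustment across the 13797 genes. These are bulk samples, in which fewer cells of a type and less RNA per cell cannot be told apart.

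All 35 receptor signalling genes were expressed in all 4 genotypes. Their deposited values lay between 8.21 and 15.17, and 2 of the 35 members were called in a comparison with WT. Both were negative regulators in Nfkb2-KO cells. Matk fell with and without the replicate block, and Dgka fell with the block alone. With the block, 2.91% of all genes were called in Nfkb2-KO cells. No member was called in RelB-KO or DKO cells against WT, where 0.0145% and 0.0652% of all genes were called with the block, so that a count of 0 there says little about the members.

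**Figure D1:**
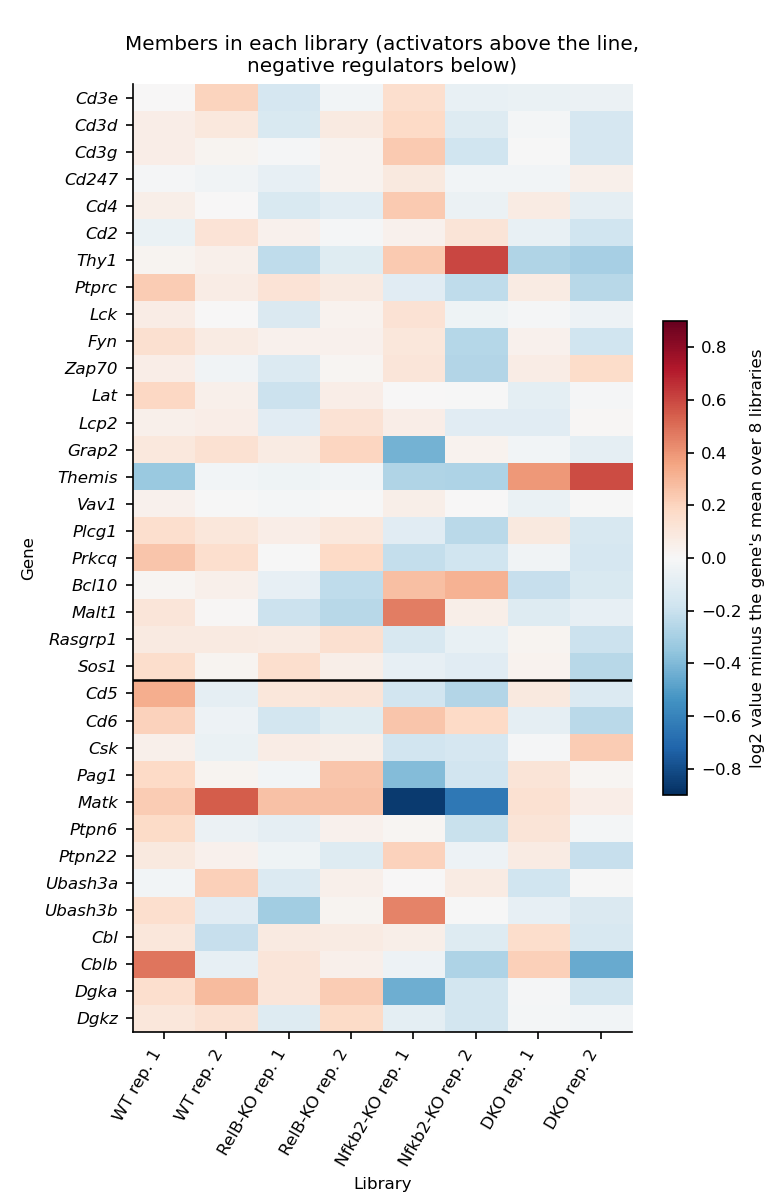
Deposited log2 value of each of the 35 members in each of the 8 libraries, shown as the difference from the member's mean over the 8 libraries (colour scale, log2 units), with activators above the line and negative regulators below it. The darkest blue cells are Matk in the Nfkb2-KO libraries (8.21 and 8.43 against 9.13 to 9.62 elsewhere).

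Matk encodes a Csk-homologous kinase that phosphorylates the inhibitory tyrosine of Src-family kinases. The gene lies at chr10:81252935-81263365 on the plus strand of mm10, and no other GENCODE M21 gene overlaps it. The 250 bases upstream of one of its RefSeq starts (GRCm38.p6, chr10:81252685-81252934, plus strand) are shown because Matk is the member called without the block. The capitals mark the core of the NFAT motif, GGAAA on either strand. The 250 bases upstream of another Matk start (chr10:81257049-81257298, plus strand) lack this core and are not shown.

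Matk upstream: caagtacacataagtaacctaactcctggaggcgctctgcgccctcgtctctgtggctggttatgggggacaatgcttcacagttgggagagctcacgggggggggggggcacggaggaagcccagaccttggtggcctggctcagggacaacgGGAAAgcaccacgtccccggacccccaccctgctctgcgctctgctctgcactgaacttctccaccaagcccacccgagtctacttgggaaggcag

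Matk values were 9.30 and 9.62 in the WT libraries (replicates 1 and 2) and 9.34 in both RelB-KO libraries. They were 8.21 and 8.43 in Nfkb2-KO and 9.21 and 9.13 in DKO cells. Both Nfkb2-KO libraries lay below all 6 others, and the DKO libraries lay just below WT and RelB-KO.

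The Nfkb2-KO minus WT difference was -1.14 ± 0.13 log2 units (SE), a 2.20-fold lower level, with a limma adjusted p of 0.0431 without the block and 0.00151 with it. Matk was 1 of 35 members called in this comparison without the block, where 0.341% of all genes were called. The call without the block was lost when any one of the 8 libraries was left out (adjusted p from 0.0936 to 0.202), and the difference was -1.30 without WT replicate 1. With the block Matk remained called in all 8 such fits, with adjusted p from 0.00173 to 0.0124. The authors' deposited table gives a log2 fold change of -1.28 with an adjusted p of 8.51e-15.

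The Matk level in DKO cells was nearer to WT than to Nfkb2-KO cells. It was 0.85 ± 0.13 higher in DKO than in Nfkb2-KO cells, with a limma adjusted p of 0.0501 without the block and 0.00307 with it. Against WT the DKO difference was -0.29, with adjusted p of 0.861 and 0.334 in the limma models without and with the block. Deleting RelB thus went with a difference of -0.12 where Nfkb2 was intact and of 0.85 where Nfkb2 was deleted. The difference between these, the interaction, was 0.97 ± 0.18, with a limma adjusted p of 0.388 without the block (0.00725% of all genes called). With the block, where 0.471% of all genes were called, its SE was 0.15 and its adjusted p 0.0356, and this call was lost on leaving out any library other than WT replicate 1. The remaining Nfkb2 transcript was itself higher in both DKO libraries than in either Nfkb2-KO library. Its part in the Matk difference was not tested.

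Marker genes of other cell types were read beside Matk. The summed level of 9 measured myeloid and dendritic markers was 9.26 to 9.37 in Nfkb2-KO and 8.53 to 8.88 in WT libraries. This sum rested mainly on Zbtb46, at 9.01 and 9.12 in Nfkb2-KO against 8.07 and 8.49 in WT libraries. Xcr1 was lower, at 4.94 and 5.00 against 5.13 and 5.14. Lyz2, at 4.72 and 5.08 against 4.73 and 5.21, was not higher. Csf1r, Itgam, Cd14 and Fcgr1 were close to their WT values. Weakly expressed genes had nearly equal values in all libraries, so the closeness of these genes says little about myeloid cells. Itgax and Siglech were below 0 on the log2 scale everywhere. The summed level of the 6 B cell markers, mainly Cd79b, was 7.64 to 7.72 in Nfkb2-KO and 7.28 to 7.50 in WT libraries. That of the 6 CD8 T and natural killer cell markers was 8.15 to 8.22 and 8.01 to 8.19, with Ncr1, Klrb1c and Klre1 below 0 and Cd8b1 and Eomes present in every library. The part of such cells in the Matk difference was not tested.

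Dgka, a diacylglycerol kinase that ends the Ras and PKC branch of the signal, was the other member called in Nfkb2-KO cells against WT. Its values were 13.16 and 13.29 in WT, 13.11 and 13.24 in RelB-KO, 12.57 and 12.84 in Nfkb2-KO, and 12.99 and 12.84 in DKO libraries. The Nfkb2-KO and DKO libraries all lay below the WT libraries, as did RelB-KO replicate 1 by less, and Nfkb2-KO replicate 1 was the lowest. The Nfkb2-KO minus WT difference was -0.52 ± 0.12, with a limma adjusted p of 0.229 without the block and 0.0341 with it. Against RelB-KO it was -0.47, with limma adjusted p of 0.208 and 0.0386. The Nfkb2-KO minus WT call with the block was lost on leaving out either WT or either Nfkb2-KO library. Dgka (chr10:128720134-128744855, minus strand) overlaps Pmel on the opposite strand, and whether counting used strand is not given in the sources used here.

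Counted over the members, 2 of 35 (5.71%) were called in Nfkb2-KO against WT with the block, where 2.91% of all genes were called. Both were negative regulators, and none of the 22 activators was called. At an unadjusted p under 0.05, 7 members (20%) passed without the block, against 10.7% of all genes, and 12 (34.3%) with it, against 18.3%. The authors' deposited table calls 7 members in this comparison, against 5.36% of all genes. It has Thy1 higher by 0.40, and Ptprc, Plcg1, Prkcq, Cd5, Matk and Dgka lower.

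**Figure D2:**
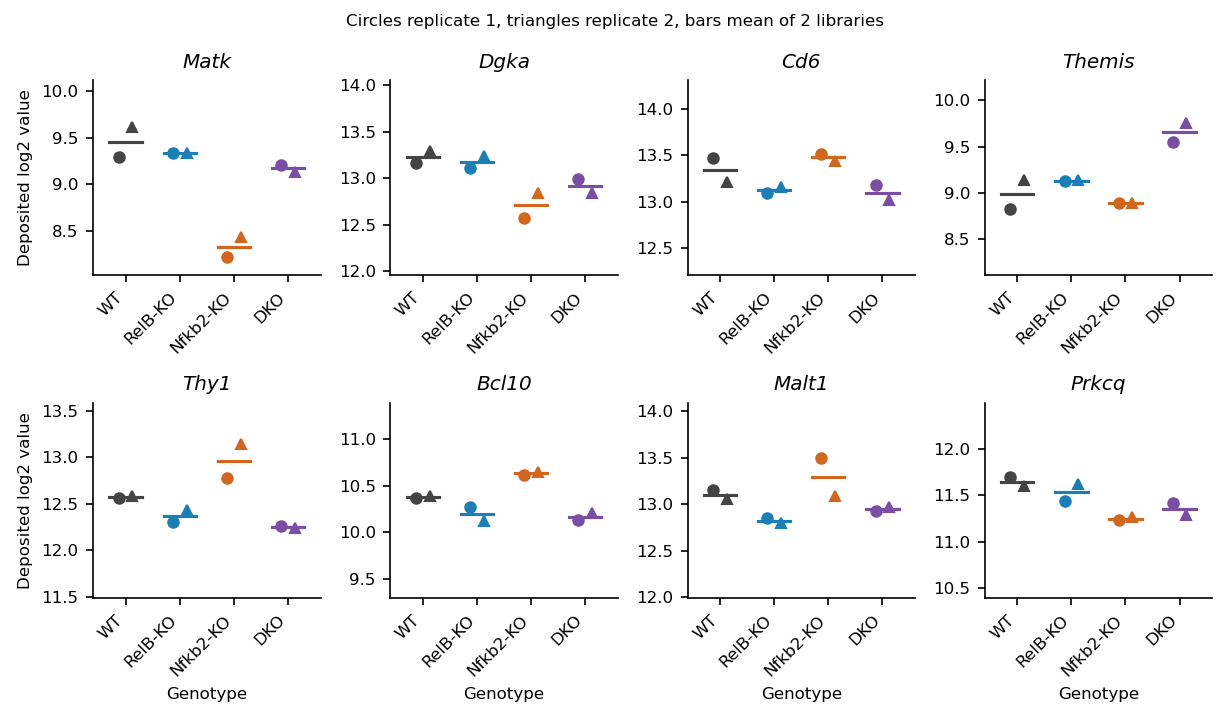
Deposited log2 values (vertical axes) by genotype for the members called in at least one contrast with or without the replicate block, and for Prkcq, with circles for replicate 1, triangles for replicate 2 and bars for their mean. Matk is lowest in both Nfkb2-KO libraries and Themis is highest in both DKO libraries.

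Of the receptor complex only the CD3 and zeta chains were members, and none of these 4 was called in any of the 7 contrasts. Cd3e values were 12.77 and 12.96 in WT, 12.61 and 12.74 in RelB-KO, 12.92 and 12.70 in Nfkb2-KO, and 12.71 in both DKO libraries. Cd3d was 12.06 and 12.09 in WT, 11.86 and 12.08 in RelB-KO, 12.18 and 11.88 in Nfkb2-KO, and 11.98 and 11.84 in DKO libraries. Cd3g was 12.45 and 12.42, 12.38 and 12.43, 12.63 and 12.21, and 12.39 and 12.24 in the same order. The Nfkb2-KO replicates of both genes lay on either side of the WT libraries. Cd247, the zeta chain, varied least of the 4, from 12.29 to 12.45 over the 8 libraries. The Nfkb2-KO minus WT differences of the 4 chains lay between -0.06 and 0.05, with 95% intervals spanning -0.35 to 0.32. Those of DKO minus WT lay between -0.16 and 0.03, with intervals spanning -0.46 to 0.23. Both DKO libraries lay below both WT libraries for Cd3e, Cd3d and Cd3g. These spans cover the 4 chains together in the model without the block, and with it the DKO minus WT span was -0.42 to 0.21. With 2 libraries a genotype, differences of such sizes remain compatible with the values.

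The Src-family kinases showed no called change either. Lck was 13.64 and 13.58 in WT, 13.44 and 13.61 in RelB-KO, 13.71 and 13.54 in Nfkb2-KO, and 13.56 and 13.53 in DKO libraries. Fyn was 13.16 and 13.09, 13.06 and 13.05, 13.12 and 12.76, and 13.06 and 12.84 in the same order, higher in replicate 1 in every genotype. Zap70 was 12.58 and 12.49 in WT and 12.59 and 12.69 in DKO libraries, higher in both DKO libraries than in either WT library but by only 0.10 ± 0.14 in the limma model (adjusted p 0.951).

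Thy1, a glycolipid-anchored surface protein that can modulate receptor signalling, differed mainly between the knockouts. Its values were 12.56 and 12.58 in WT, 12.30 and 12.43 in RelB-KO, 12.77 and 13.14 in Nfkb2-KO, and 12.26 and 12.24 in DKO libraries. The Nfkb2-KO libraries were the highest and the DKO libraries the lowest, with WT between them. The DKO minus Nfkb2-KO difference was -0.71 ± 0.13, with a limma adjusted p of 0.0811 without the block and 0.00519 with it. Nfkb2-KO exceeded RelB-KO by 0.59, with limma adjusted p of 0.135 and 0.0127. Against WT, the Nfkb2-KO difference of 0.39 had adjusted p of 0.366 and 0.0777 in these models.

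Themis, which binds phosphatases and tunes receptor signals during thymic selection, was highest in DKO cells. Its values were 8.83 and 9.14 in WT, 9.13 and 9.14 in RelB-KO, 8.89 in both Nfkb2-KO libraries, and 9.55 and 9.75 in DKO libraries. Both DKO libraries lay above the other 6. The DKO minus Nfkb2-KO difference was 0.76 ± 0.12, with a limma adjusted p of 0.0585 without the block and 0.00323 with it. The DKO minus WT difference of 0.67 ± 0.12 had limma adjusted p of 0.861 and 0.0774, and with the block it was called on leaving out WT replicate 2 or either RelB-KO library. The authors' deposited table calls Themis in DKO against WT, at 0.75 with an adjusted p of 7.42e-05, the only member it calls there, where it calls 0.978% of all genes.

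Bcl10 and Malt1 form the signalling complex that links PKCθ to NF-κB. Bcl10 values were 10.36 and 10.39 in WT, 10.27 and 10.12 in RelB-KO, 10.61 and 10.65 in Nfkb2-KO, and 10.13 and 10.20 in DKO libraries. Both Nfkb2-KO libraries lay above all others. The DKO minus Nfkb2-KO difference was -0.47 ± 0.08, with a limma adjusted p of 0.0676 without the block and 0.0116 with it. Nfkb2-KO exceeded RelB-KO by 0.44, with limma adjusted p of 0.0808 and 0.0166. Malt1 was 13.15 and 13.05 in WT, 12.85 and 12.79 in RelB-KO, 13.50 and 13.09 in Nfkb2-KO, and 12.93 and 12.97 in DKO libraries. Nfkb2-KO replicate 1 stood above its partner. Malt1 exceeded RelB-KO by 0.47 ± 0.14 in Nfkb2-KO cells, with a limma adjusted p of 0.243 without the block and 0.0417 with it.

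The 250 bases upstream of a RefSeq start of Bcl10 (GRCm38.p6, chr3:145924012-145924261, plus strand) are shown because Bcl10 was the member with a match to the κB consensus in this window. In GENCODE M21 the gene spans chr3:145922804-145934356 on the plus strand, so this window lies within it. The first capitals mark that match, which is found on both strands, and the second the NFAT core.

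Bcl10 upstream: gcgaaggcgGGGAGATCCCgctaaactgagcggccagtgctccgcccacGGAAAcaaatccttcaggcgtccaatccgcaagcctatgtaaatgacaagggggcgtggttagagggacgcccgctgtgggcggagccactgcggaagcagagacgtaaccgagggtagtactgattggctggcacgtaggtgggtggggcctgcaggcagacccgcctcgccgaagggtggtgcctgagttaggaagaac

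Of the 35 members, 29 had a RefSeq promoter entry. A κB consensus match was present for 1 of the 29 (3.45%), against 8.23% of 27025 genes with an entry. The AP-1 motif TGANTCA was found for none, against 7.82% of genes. GGAAA was found for 22 (75.9%), against 58.8%, and the ETS motif CAGGAAG for 9 (31.0%), against 12.1%. Both strands were searched, a gene counted if any of its entries matched, and a κB match can contain GGAAA. A match is a description of the letters and not evidence of binding.

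Prkcq, the PKCθ gene, was 11.69 and 11.60 in WT, 11.44 and 11.62 in RelB-KO, 11.23 and 11.27 in Nfkb2-KO, and 11.42 and 11.29 in DKO libraries. All 4 libraries with Nfkb2 deleted lay below both WT libraries, as did RelB-KO replicate 1. The Nfkb2-KO minus WT difference of -0.40 ± 0.09 had a limma adjusted p of 0.213 without the block and 0.0504 with it, so it was not called, though with the block it passed on leaving out either RelB-KO library.

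No other activator was called. Vav1, a guanine nucleotide exchange factor downstream of Zap70, was the steadiest member, with values from 11.82 to 11.93. Ptprc, the phosphatase CD45 that keeps Lck active, ranged from 14.69 to 15.17. Plcg1 ranged from 12.03 to 12.42, and its Nfkb2-KO minus WT difference was -0.30 ± 0.10, with limma adjusted p of 0.367 and 0.0920 without and with the block. Grap2, an adaptor that joins Lat to Lcp2, ranged from 10.60 to 11.23, with Nfkb2-KO replicate 1 the lowest. Cd4, Cd2, Lat, Lcp2, Rasgrp1 and Sos1 each spanned less than Grap2.

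Among the negative regulators at the surface, Cd6, a scavenger-receptor-family protein that restrains receptor signalling, differed between DKO and Nfkb2-KO cells. Its values were 13.46 and 13.21 in WT, 13.09 and 13.15 in RelB-KO, 13.51 and 13.44 in Nfkb2-KO, and 13.18 and 13.02 in DKO libraries. Both DKO libraries lay below both Nfkb2-KO libraries. The difference of -0.38 ± 0.11 had a limma adjusted p of 0.278 without the block and 0.0464 with it.

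Of the negative regulators not yet described, Pag1, the membrane adaptor that recruits Csk, had an Nfkb2-KO minus WT difference of -0.38 ± 0.13, and Cd5 one of -0.34 ± 0.15. Neither was called (limma adjusted p 0.369 and 0.496 without the block, 0.121 and 0.122 with it). The authors' deposited table calls Cd5 (adjusted p 0.0358) and not Pag1 (adjusted p 0.0639). Ptpn6 ranged from 11.36 to 11.73 and Ptpn22 from 12.62 to 13.03.

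Related negative regulators differed from WT by unlike amounts, a description that was not tested. In Nfkb2-KO minus WT, Csk differed by -0.15 where its homologue Matk differed by -1.14. Csk was 12.50 and 12.39 in WT, 12.52 and 12.51 in RelB-KO, 12.28 and 12.30 in Nfkb2-KO, and 12.44 and 12.68 in DKO libraries, so it too was lowest in Nfkb2-KO cells. Dgkz, from 12.65 to 12.98 over the libraries, differed by -0.25 beside -0.52 for Dgka. Cbl, from 11.83 to 12.19, differed by 0.02 and Cblb by -0.37. The phosphatase-family genes Ubash3a, from 10.88 to 11.28, and Ubash3b, from 11.13 to 11.89, differed by -0.05 and 0.20. Cblb replicates were far apart, at 12.70 and 12.15 in WT and 12.43 and 11.76 in DKO libraries. Its DKO minus WT difference was -0.33 ± 0.26, with a limma adjusted p of 0.889 without the block. Within replicates 1 and 2 the difference was -0.27 and -0.38. With the block its SE was 0.13 and its limma adjusted p 0.363, so it was not called. Cblb was higher in replicate 1 in every genotype, as were Ptprc, Fyn, Sos1, Ptpn22 and Cbl, and Ubash3a was higher in replicate 2. A replicate difference of one sign in all 4 genotypes was thus seen in 20% of members, against 36.8% of all genes.

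**Figure D3:**
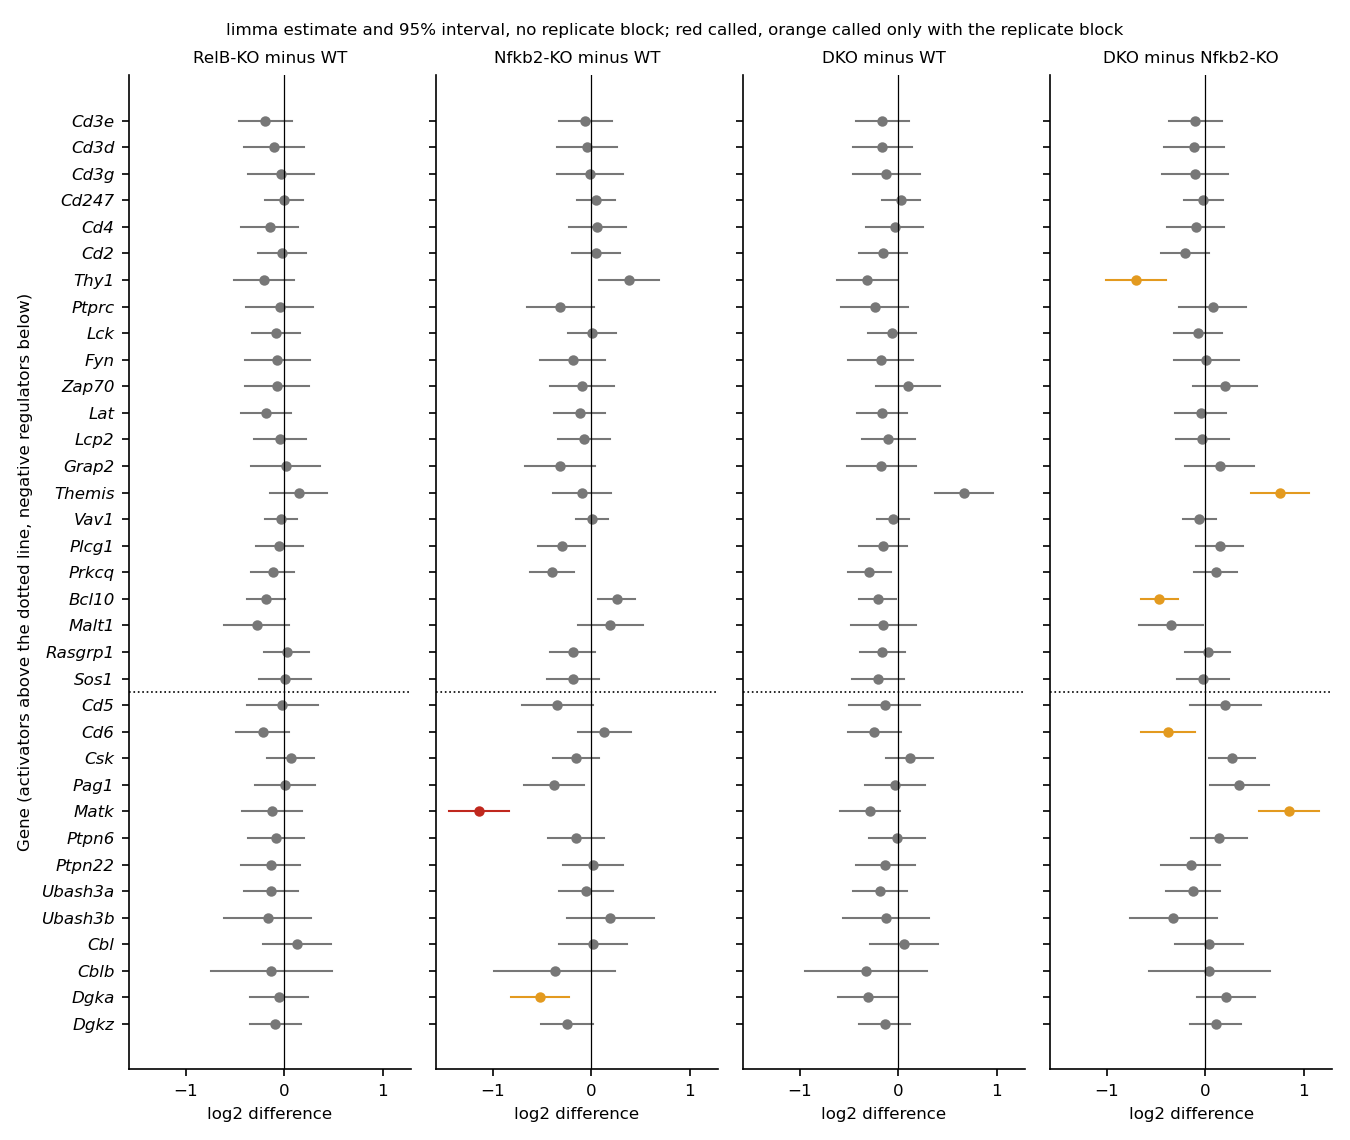
Log2 difference of each member (horizontal axes) in the 3 comparisons with WT and in DKO minus Nfkb2-KO, with unadjusted 95% intervals from limma without the replicate block and activators above the dotted line. Red marks a member called without the block (Matk, -1.14 in Nfkb2-KO minus WT) and orange those called with the block alone.

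The knockouts were also compared with each other. With the block, 5 of 35 (14.3%) were called in DKO against Nfkb2-KO, where 5.02% of all genes were. Themis and Matk were higher, and Thy1, Bcl10 and Cd6 lower, in DKO cells. No member was called there without the block (0.768% of all genes), and 8 members (22.9%) had an unadjusted p under 0.05, against 9.86% of all genes. With the block, 5 of 35 were also called in Nfkb2-KO against RelB-KO, where 4.46% of all genes were, with Thy1, Bcl10 and Malt1 higher and Matk and Dgka lower in Nfkb2-KO cells. Without the block Matk alone was called (0.797% of all genes), by -1.02 ± 0.13 with a limma adjusted p of 0.0267. These comparisons share the Nfkb2-KO libraries. Values of the groups did not overlap for 16 members in the first, against 35.1% of all genes, and for 21 in the second, against 42% of all genes. Leaving out DKO replicate 2 reduced the DKO against Nfkb2-KO calls with the block to Matk alone. The Bcl10 and Cd6 calls there were lost on leaving out either DKO or either Nfkb2-KO library (adjusted p up to 0.107 for Bcl10 and 0.295 for Cd6). In Nfkb2-KO against RelB-KO with the block, Matk remained called in all 8 such fits. Thy1 was lost without either RelB-KO library or Nfkb2-KO replicate 2, Bcl10 without RelB-KO replicate 2 or either Nfkb2-KO library, and Dgka without any one of these 4 libraries. Malt1 remained called in 3 of the 8 fits. Without the block, Matk remained called in 2 of 8 fits of this comparison.

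Against RelB-KO, DKO cells had no called member in limma with or without the block (0.0145% and 0.00725% of all genes), and 3 and 1 members at an unadjusted p under 0.05, against 8.81% and 2.88% of all genes. Their values did not overlap for 14 members, against 27.5% of all genes. RelB-KO cells had none against WT in either model (0.0145% and 0.00725% of all genes), with 3 and 0 members at an unadjusted p under 0.05, against 3.13% and 1.24% of all genes. The authors' deposited table also calls none in RelB-KO, and 0.0942% of all genes. The members farthest from WT in RelB-KO cells were Malt1, at -0.28 ± 0.14, Cd6, at -0.22, and Thy1, at -0.20.

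In DKO cells most members stood slightly below WT without any being called by limma (0.0145% of all genes without and 0.0652% with the block). At an unadjusted p under 0.05, 5 members (14.3%) passed without the block, against 5.18% of all genes, and 11 (31.4%) with it, against 12.9%. The median difference over the 35 members was -0.15, against 0.00 over all genes tested. It was -0.16 over the activators and -0.14 over the negative regulators. Of the 35, 30 were below 0, against 49.3% of all genes, and 28 (80%) were lower within both replicate numbers, against 29.4%. The median was -0.10 within replicate 1 and -0.19 within replicate 2. The DKO and WT values did not overlap for 22 members (62.9%), against 34.1% of all genes, and 20 of them were lower in DKO, as were 17.6% of all genes. These 22 were 18 of the 22 activators and 4 of the 13 negative regulators. Some marker levels differed as well. The summed level of the 6 B cell markers was 7.77 to 7.84 in DKO and 7.28 to 7.50 in WT libraries, that of the 6 Treg markers 17.48 to 17.51 and 17.22 to 17.26, and that of the 9 myeloid and dendritic markers 8.24 to 8.63 and 8.53 to 8.88. The B cell sum rested mainly on Cd79b and the myeloid and dendritic sum mainly on Zbtb46. Of the Treg markers, Il2ra was 16.33 and 16.52 in DKO against 15.93 and 15.94 in WT libraries, and Ctla4 was also higher. Nrp1 was lower in both DKO libraries, and Foxp3, Ikzf2 and Tnfrsf18 overlapped with WT. The part of these marker differences in the shift of the members was not tested.

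In RelB-KO cells the median over members was -0.07, and 28 of 35 were below 0, against 48.2% of all genes. That median was -0.12 within replicate 1 and 0.01 within replicate 2. Values did not overlap with WT for 11 members (31.4%), against 20.6% of all genes. In Nfkb2-KO cells the median was -0.09, with 23 below 0, against 49.6% of all genes. It was 0.01 within replicate 1 and -0.15 within replicate 2, and thus differed in sign. Values did not overlap with WT for 15 members (42.9%), against 42.5% of all genes. The 3 comparisons with WT share the WT libraries.

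**Figure D4:**
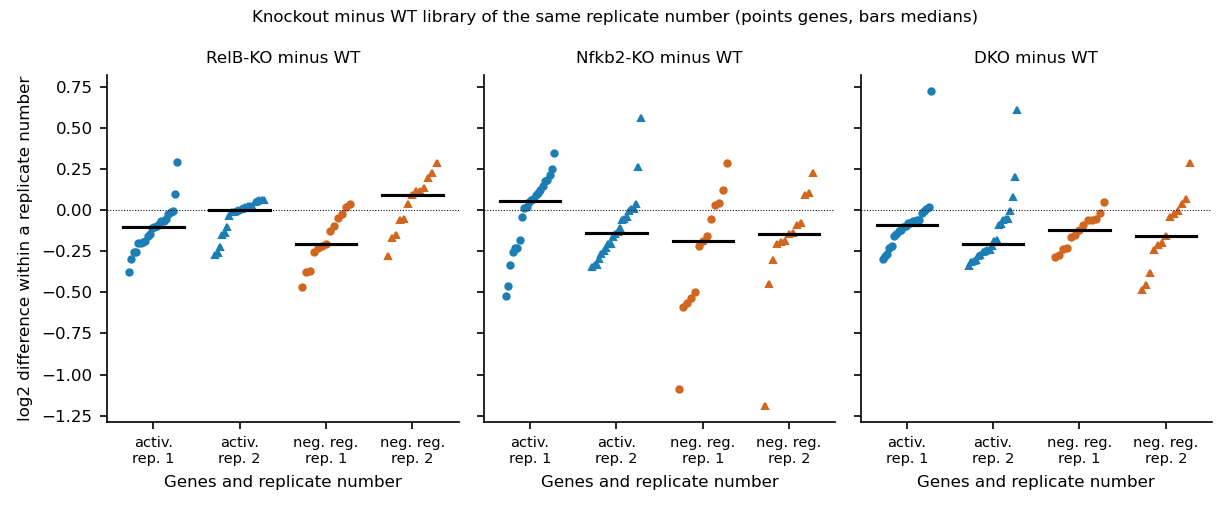
Log2 difference of each member from the WT library of the same replicate number (vertical axis), one panel per knockout. The horizontal axis separates activators from negative regulators and replicate 1 (circles) from replicate 2 (triangles), and bars are medians. In DKO, 28 of 35 members were below 0 within both replicate numbers.

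Activators were then set beside negative regulators within each library, where the gap between them is read across libraries and not as a difference in abundance. The mean log2 value of the 22 activators exceeded that of the 13 negative regulators by 0.27 and 0.38 in WT, 0.34 and 0.31 in RelB-KO, 0.51 and 0.47 in Nfkb2-KO, and 0.32 and 0.39 in DKO libraries. Both Nfkb2-KO libraries were above the 6 others. Without Matk the same gaps were 0.03 and 0.18 in WT, 0.12 and 0.08 in RelB-KO, 0.21 and 0.19 in Nfkb2-KO, and 0.09 and 0.16 in DKO libraries, so that the Nfkb2-KO libraries stood above WT replicate 2 by less than the WT replicates differed. In Nfkb2-KO minus WT the median difference was -0.06 over activators and -0.15 over negative regulators. The activator median turned to 0.02 without Nfkb2-KO replicate 2 and was -0.13 without Nfkb2-KO replicate 1. It was 0.06 within replicate 1 and -0.14 within replicate 2, and the negative regulator median was -0.19 and -0.15.

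Other genes of the pathway were read from a separate list of 96, of which 95 were tested. Without the block none was called in any of the 7 contrasts. With it, 4 (4.21%) were called in Nfkb2-KO against WT, against 2.91% of all genes, all lower: Sh2d1a, Dusp10, Rasa3 and Itpr3. Sh2d1a, the adaptor SAP, was 9.68 and 9.93 in WT and 9.22 and 8.66 in Nfkb2-KO libraries, a difference of -0.86 (limma adjusted p 0.0378 with the block). Dusp10, a phosphatase of stress-activated kinases, was 9.56 and 9.05 in WT and 8.77 and 8.64 in Nfkb2-KO libraries, a difference of -0.60 (limma adjusted p 0.0157 with the block). Rasa3, a GTPase-activating protein, differed by -0.53, and the calcium channel gene Itpr3 by -0.33.

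In DKO against Nfkb2-KO, 8 of the 95 (8.42%) were called with the block, against 5.02% of all genes. Trat1, a receptor-associated adaptor, was 10.24 and 10.55 in Nfkb2-KO and 9.92 and 9.44 in DKO libraries, a difference of -0.71 (limma adjusted p 0.0319 with the block). Sla, an adaptor that restrains receptor signalling, was lower by the same test. Dusp10, Rasa3, Gab2 and Sh2d2a were higher in DKO cells. In Nfkb2-KO against RelB-KO, 6 (6.32%) were called with the block, against 4.46% of all genes, among them Dusp10, Rasa3, Gab2, Pik3r1 and Itpr3, which were lower in Nfkb2-KO cells.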

How the data were processed

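RNA from 8 stimulated Treg libraries of 4 genotypes was sequenced, at 30 M reads per sample by the design text. The submitters' processing notes name STAR, DESeq2 1.10.1 and mm10 without roles; the counting program and batch method are not given in the sources used here. The authors deposited log2 values that the file header calls log2 RPKM, batch corrected. Un-logged, they summed to between 18.2 and 19.7 M per library, and weakly expressed genes had nearly equal values in all libraries, so the scale is not certain to be per length. Levels of single genes were not ranked against each other, sums and means over lists are read across libraries only, depth is unknown, and differences of weakly expressed genes may be too small. The authors also deposited p-values and adjusted p-values with log2 fold changes of each knockout against WT. A further 8 columns of per-sample z-scores were not used.

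Genes at 0 in all libraries (6247) and 1 gene with a blank cell were left out, and 13797 genes whose un-logged values averaged 1 or more were tested. In R 4.3.3, limma 3.58.1 with a variance trend was fitted to all 8 libraries with genotype as the factor (4 residual degrees of freedom), over 7 contrasts, with Benjamini-Hochberg adjustment and a threshold of 0.05. Replicate numbers pair the samples by the data: the replicate 1 minus replicate 2 differences correlated between genotypes at Pearson 0.812 to 0.887 in the 6 pairs, across 13797 genes that are not independent. The second model adds the replicate number as a block (3 residual degrees of freedom). Differences are given ± the SE of the model without the block unless stated, and replicates are n = 2 per genotype.

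Named with values are members called in any contrast, the 3 largest differences against WT in each knockout, the CD3 and zeta chains, and paralog pairs. Of the other pathway genes, the 10 called ones with the largest differences were to be named, and not all of them are reported here. Members and lists were chosen with earlier results of these data known. Coordinates are from GENCODE M21 (GRCm38, mm10) and promoters from RefSeq. Alternatives changed the filter, trend, pseudocount, scaling, genotypes fitted and libraries used.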

Additional observations from a re-analysis of the deposited data

Results flagged for a closer look

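The Matk interaction was called in the limma model with the replicate block, at 0.97 ± 0.15 log2 units with an adjusted p of 0.0356. As described above, this call was not stable when a library was left out. The interaction ran from 0.84 to 1.11 in those fits with the block. Deleting RelB went with a Matk difference of -0.12 where Nfkb2 was intact and of 0.85 where it was deleted. More Nfkb2 transcript was left in the DKO than in the Nfkb2-KO libraries. Without the block the interaction's adjusted p was 0.388 in limma.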

How the results depend on the processing

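Without the replicate block, the count of members called in Nfkb2-KO against WT was 1 (Matk), and it was 2 with the replicate block. It was 0 with no variance trend, 0 with no filter on low values and 0 with only the genotypes compared in the fit. For DKO against Nfkb2-KO the count was 0, and it was 5 with the replicate block and 2 (Matk and Themis) with quantile normalization. For Nfkb2-KO against RelB-KO it was 1, and it was 5 with the replicate block and 0 with only the genotypes compared. For the interaction it was 0, and 1 with the replicate block. Leaving out one library at a time, the counts without the block ranged from 0 to 0 for Nfkb2-KO against WT and from 0 to 1 for Nfkb2-KO against RelB-KO, and were 0 in the other contrasts. With the replicate block and one library left out, an alternative chosen after seeing the data, they ranged from 1 to 3 for Nfkb2-KO against WT, 0 to 1 for DKO against WT, 1 to 5 for DKO against Nfkb2-KO, 2 to 6 for Nfkb2-KO against RelB-KO and 0 to 1 for the interaction, and stayed at 0 for the other contrasts. A fit that leaves 1 library in a genotype assumes that it varies like the others. The cause of these changes was not tested. No difference of a called member changed sign. With 2 libraries a genotype and a median SE of 0.12, small differences could not be resolved, and depth is unknown.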
